A study of Homo sapiens with 18 samples.

Results

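Transcript levels of the 8 genes named FCGR1A, FCGR2A, FCGR2B, FCGR2C, FCGR3A, FCER1G, FCER2 and FCGRT, taken from the 58051 genes listed in each library, were compared in THP-1 cells. The genes were chosen by name and not by their values. They are receptors for IgG and IgE, the signalling chain that some of them need, and the neonatal Fc receptor. THP-1 is a human monocytic leukaemia line. All cells carried a retroviral MSCV vector with GFP and were sorted for GFP: MSCV-GFP-IRES (IRES, the vector with no insert named), MSCV-GFP-MYC-NIC1 (NIC1, the intracellular, active part of NOTCH1) or MSCV-GFP-DNMAML (DNMAML, a dominant negative form of the Notch co-activator Mastermind-like). All cells were also given PMA at 5 ng/ml for 48 h, and each construct was then left unstimulated or given IL-4 at 20 ng/ml for 3 h. The 6 groups held 3 libraries each, 18 in all, numbered Ex1, Ex2 and Ex3 in the labels and read here as experiments 1, 2 and 3. The series asked how raised or lowered Notch signalling alters THP-1 cells given IL-4; it is a single cell line with each construct under a viral promoter, and no library of cells without PMA or without a vector was analysed here.

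Fc receptors bind the constant part of antibodies and couple the antibody to the cell that carries it. Activating receptors for IgG signal through an immunoreceptor tyrosine-based activation motif (ITAM), held either in their own tail (FCGR2A, FCGR2C) or in the chain encoded by FCER1G, which FCGR1A and FCGR3A need; the only inhibitory one, FCGR2B, carries an inhibitory motif (ITIM) that recruits phosphatases. FCER2, also called CD23, is the low-affinity receptor for IgE and a textbook target of IL-4 in B cells and monocytes, whereas FCGRT encodes the heavy chain of the neonatal Fc receptor, which returns IgG from endosomes to the cell surface. In monocytes and macrophages the balance of activating and inhibitory receptors sets the response to immune complexes.

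The libraries held 12410668 to 15099788 reads in genes. Genes with at least 1 read numbered 21067 to 21557 in 16 libraries, 23179 in IRES without IL-4 of experiment 3 and 25322 in DNMAML with IL-4 of experiment 3. Changes are given as log2 ± SE, with the SE derived from the F statistic of edgeR's quasi-likelihood test. The test covered 15037 genes with Benjamini-Hochberg adjustment, and genes were called at an adjusted p of 0.05. Libraries of the same experiment deviated together, so a fit that takes the experiment as a block (the blocked fit) is given where it alters a call. Each of the 18 libraries was also left out in turn. For a comparison of 2 groups most of these fits removed a library outside both, which enters only through shared estimates such as the spread. The libraries whose omission lost a call therefore tell more than the count of fits in which it held. NOTCH1 averaged 188 ± 40.5 CPM (counts scaled to TMM library size; SD, n = 3) in IRES and 287 ± 55.3 in NIC1 without IL-4, and MAML1, which a dominant negative fragment of Mastermind-like 1 could add reads to, averaged 88.9 ± 9.32 in IRES and 131 ± 8.08 in DNMAML. Without the block, 0 of these 2 genes were called in NIC1 or DNMAML against IRES in either condition. In the blocked fit 1 was higher in NIC1, and in DNMAML 1 was higher and 1 lower, in both conditions. All 10 monocyte and macrophage markers listed had reads and 7 averaged at least 1 CPM, SPI1 (328), ITGAM (311) and CSF1R (228) among them, whereas MRC1 had 5 reads over all libraries.

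With IL-4, FCGR2A and FCGR2B rose 3.70 to 5.48-fold in cells of every construct, and FCER2, at a far lower level, rose in NIC1 and DNMAML cells, in IRES cells only in the blocked fit. FCGR2C in all 3 constructs, and FCGR1A in IRES and DNMAML, rose in the blocked fit only. FCER1G and FCGRT were not called with IL-4 in either fit. Between constructs FCER1G was higher in NIC1 than in DNMAML cells without IL-4, and in the blocked fit NIC1 cells also had more FCER1G than IRES cells. FCER2 with IL-4 was higher in NIC1 than in IRES and DNMAML cells in the blocked fit; NIC1 with IL-4 is also the group that brought this gene past the filter on low counts. No member was called between DNMAML and IRES in either fit.

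Of the 8 genes, 7 had enough reads to be tested and FCGR3A had not. FCER2 passed the filter on low counts only through NIC1 with IL-4 and FCGR2C only through the groups with IL-4, so the counts and medians below describe the genes tested and carry no weight as support. With IL-4, 2 of 7 were called in IRES, 3 in NIC1 and 3 in DNMAML, all higher, where 2.93%, 3.05% and 3.28% of all genes tested were called. In the blocked fit 5, 4 and 5 of the 7 were called, against 9.04%, 8.8% and 9.95% of all genes. The median log2 change of the 7 was 1.21 in IRES, 1.61 in NIC1 and 1.41 in DNMAML, and that of all genes was between -0.01 and 0.00 in each. Between constructs 1 member was called in the first fit, FCER1G in NIC1 against DNMAML without IL-4, where 1.65% of all genes were called. The comparisons of NIC1 and of DNMAML with IRES use the same IRES libraries, so their values are set side by side and are not independent.

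**Figure D1:**
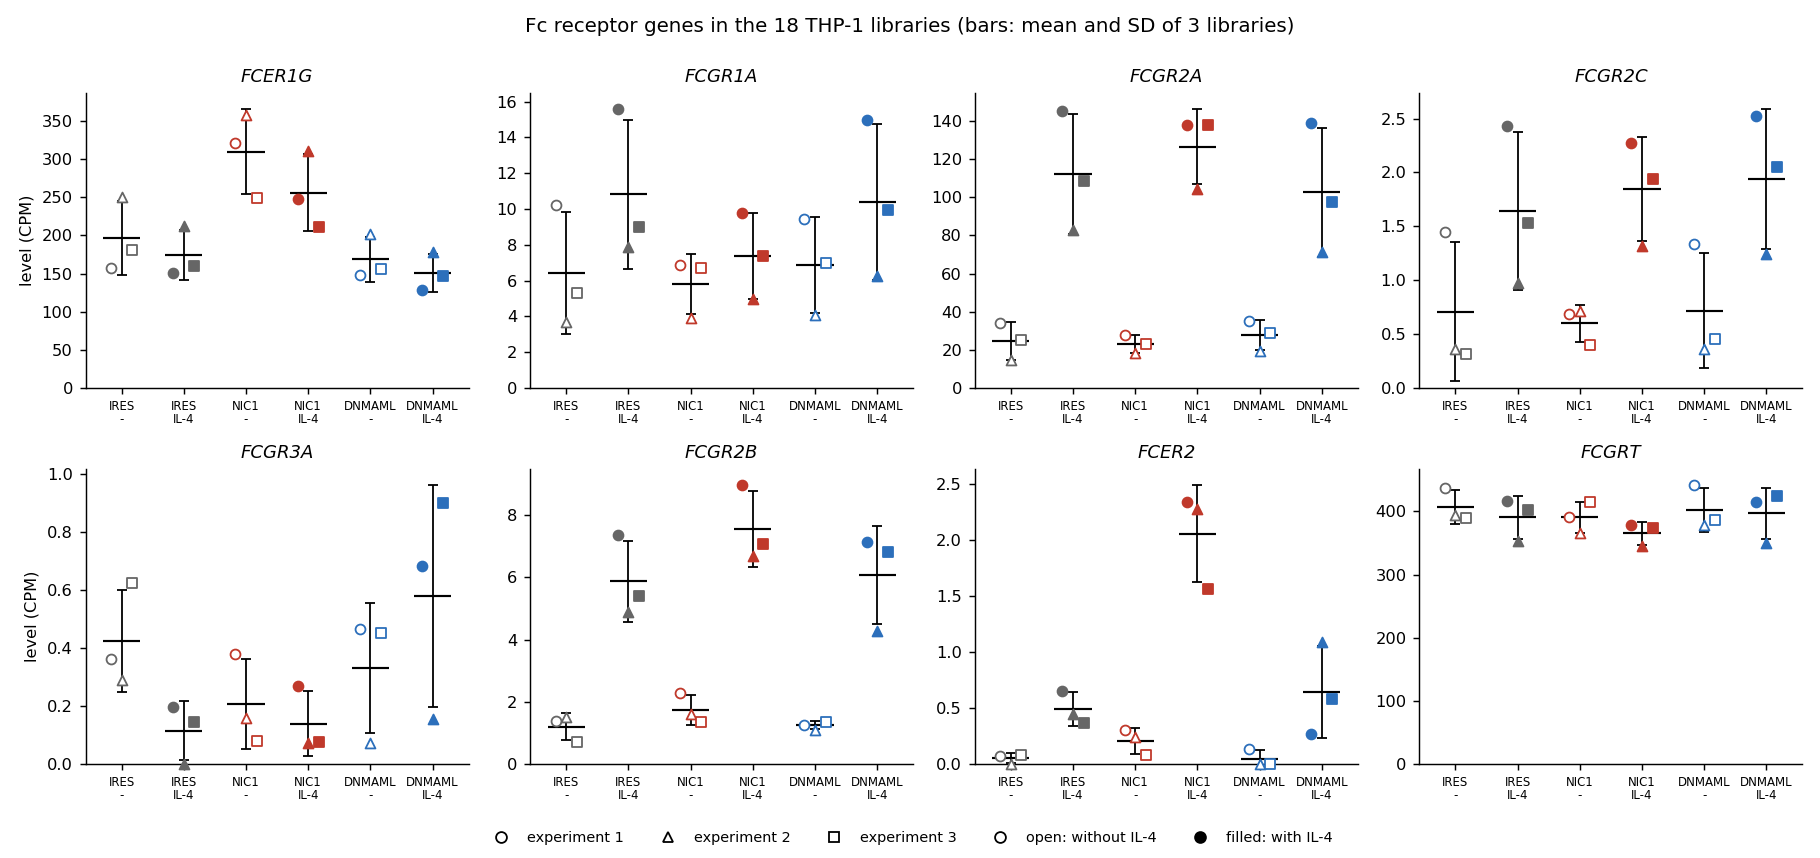
Level of the 8 Fc receptor genes in each of the 18 libraries, in CPM on linear axes that start at 0 and differ between panels; marker shape gives the experiment, open markers are without and filled markers with IL-4, and bars give the mean and SD of 3 libraries. FCGR2A and FCGR2B with IL-4 lie above their libraries without it for every construct, FCER1G lies highest in NIC1 (210.3 to 358 CPM), and FCGRT stays between 344 and 441 CPM.

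Levels of different genes were compared as reads per kilobase of exon, scaled to library size (RPKM). FCER1G was highest, with 217 ± 69.9 (SD over 18 libraries), followed by FCGRT with 93.9 ± 6.94 and FCGR2A with 13.1 ± 9.31. FCGR1A averaged 2.65 ± 1.13, FCGR2B 0.594 ± 0.425, FCGR2C 0.347 ± 0.212, FCER2 0.238 ± 0.305 and FCGR3A 0.101 ± 0.0835. In IRES cells FCGR2A went from a mean of 4.63 RPKM to 21.1 RPKM with IL-4, above FCGR1A and below FCGRT in both conditions. The signalling chain and the recycling receptor were the highest of the 8 genes, and the low-affinity receptors other than FCGR2A the lowest. Reads aligned to several places were left out of the counts, and FCGR1A, FCGR2A, FCGR2B, FCGR2C and FCGR3A share sequence with relatives. Their levels in this order may therefore be too low.

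FCER1G (ENSG00000158869; GRCh38 chr1:161215234-161220699, plus strand) encodes the common gamma chain, the ITAM-bearing partner of FCGR1A, FCGR3A and the high-affinity IgE receptor. Without IL-4 it stood at 158, 250.3 and 181 CPM in IRES (experiments 1, 2 and 3), at 322, 358 and 248 in NIC1 and at 147, 202 and 156 in DNMAML. With IL-4 it stood at 150.3, 212 and 160.2 in IRES, at 248, 310.4 and 210.3 in NIC1 and at 128, 178 and 147 in DNMAML. The NIC1 libraries lay above those of DNMAML without overlap in both conditions, and overlapped with IRES because experiment 2 was the highest in 6 of 6 groups. Within an experiment, NIC1 exceeded IRES in 6 of 6 pairs by 1.31 to 2.04-fold and DNMAML in 6 of 6 pairs by 1.43 to 2.18-fold. Natural killer cells express FCER1G too, and the summed level of 7 of their markers was 20.9 to 37.5 CPM in NIC1, 18.8 to 21.6 in IRES and 13.5 to 17.9 in DNMAML without IL-4, and 25.4 to 40.5, 21.8 to 24.2 and 17.7 to 20.6 with it. Of these 7, 5 averaged at least 1 CPM, NKG7 (7.76), NCAM1 (4.56), GNLY (4.14), PRF1 (3.79) and NCR1 (1.01), and 0 were without reads. KLRD1 averaged 0.632 and KLRF1 0.746 CPM. The 10 monocyte and macrophage markers, summed likewise, ran in the other order, with overlap between constructs. Their sum in unstimulated cells was 762 to 1006 CPM in NIC1, 903 to 1131 in IRES and 985 to 1183 in DNMAML. After IL-4 the ranges were 800 to 1021, 937 to 1160 and 1021 to 1207 CPM for the same constructs in turn. The part of either set of markers in the result was not tested.

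The difference in FCER1G between NIC1 and DNMAML was 0.88 ± 0.21 without IL-4 (adjusted p = 0.0483 by edgeR, 2.66e-06 in the blocked fit). With IL-4 it was 0.76 ± 0.21 (adjusted p = 0.0989, blocked 1.21e-05). Against IRES NIC1 was higher by 0.66 ± 0.21 in unstimulated cells (adjusted p = 0.364, blocked 0.000133) and by 0.56 ± 0.21 after IL-4 (adjusted p = 0.594, blocked 0.00075). The call against DNMAML without IL-4 held in 7 of 18 fits that left out 1 library, with an adjusted p of up to 0.218, and was lost without IRES experiment 3, NIC1 experiments 1 or 2, or DNMAML experiments 1 or 3, all without IL-4, and without experiment 1 or 3 of any construct with IL-4. In the blocked fit each of the 4 differences held in 18 of 18. In bulk RNA, more RNA per cell and more cells that make it cannot be told apart, for this gene and those below.

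FCER1G in DNMAML was below IRES in 6 of 6 pairs, at 0.808 to 0.936 of its level. The fitted difference was -0.22 ± 0.21 without and -0.21 ± 0.21 with IL-4, not called in either fit (blocked adjusted p = 0.526 and 0.591). IL-4 was followed by a lower FCER1G level in 9 of 9 pairs, at 0.770 to 0.954 of the unstimulated library. This too was not called: the log2 change was -0.17 ± 0.21 in IRES, -0.27 ± 0.21 in NIC1 and -0.16 ± 0.21 in DNMAML, with blocked adjusted p of 0.349, 0.0553 and 0.367.

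FCGR1A (ENSG00000150337; chr1:149782671-149792518, plus strand) encodes CD64, the high-affinity receptor for monomeric IgG. It stood at 10.2, 3.68 and 5.30 CPM in IRES without and 15.6, 7.89 and 8.97 with IL-4. In NIC1 it stood at 6.85, 3.90 and 6.72 without and 9.77, 4.99 and 7.37 with IL-4, and in DNMAML at 9.46, 4.10 and 7.0 without and 15.0, 6.28 and 9.95 with IL-4. All neighbouring groups overlapped, since experiment 1 was the highest and experiment 2 the lowest in 6 of 6 groups. Within an experiment the level was higher with IL-4 in 9 of 9 pairs, by 1.10 to 2.14-fold.

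The IL-4 response of FCGR1A was 0.76 ± 0.43 in IRES (adjusted p = 0.674, blocked 0.000832), 0.34 ± 0.44 in NIC1 (0.999, blocked 0.259) and 0.60 ± 0.43 in DNMAML (0.786, blocked 0.0077). With IL-4, FCGR1A was lower in NIC1 than in IRES in all 3 experiments, at 0.627, 0.633 and 0.821 of its level, and lower than in DNMAML at 0.652, 0.794 and 0.741. These differences, -0.55 ± 0.43 and -0.50 ± 0.43, were called in the blocked fit only (adjusted p = 0.025 and 0.0291, against 1 and 0.744). They held in 13 and 14 of 18 blocked fits that left out 1 library, and each loss came from omitting a library of the groups compared. The first was lost without IRES experiments 1 or 2 or any NIC1 library with IL-4 (adjusted p of up to 0.193), and the second without experiments 1 or 3 of NIC1 or DNMAML with IL-4 (up to 0.183). The blocked IL-4 call in DNMAML was lost without experiment 1 of either condition (up to 0.0534). Of the FCGR1A exon bases, 24.6% overlap genes on the other strand, HIST2H2BF and AC243772.2, and whether reads were counted by strand is not given.

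**Figure D2:**
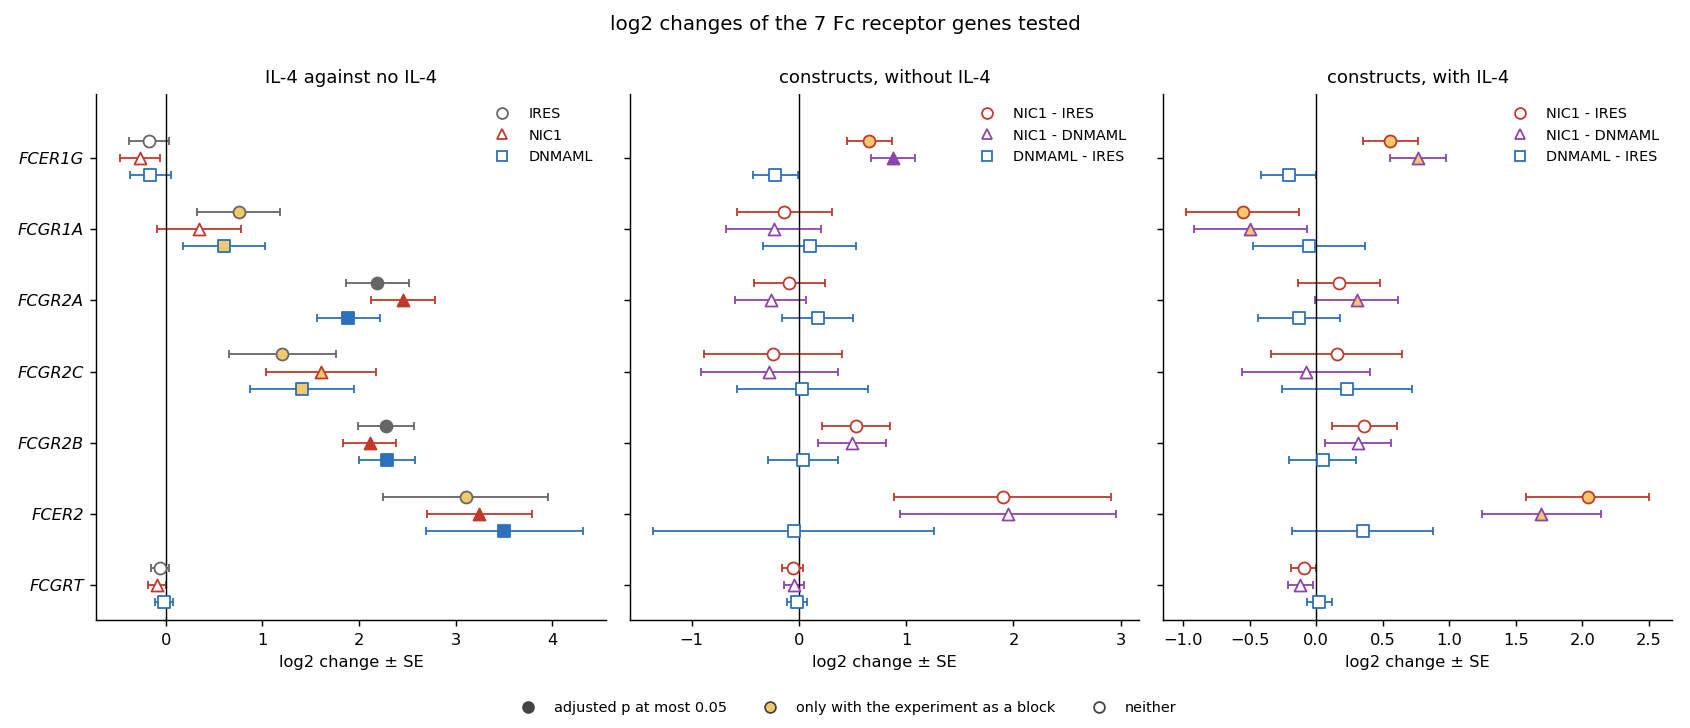
Log2 change ± SE of the 7 tested genes with IL-4 in each construct (left), between constructs without IL-4 (middle) and with it (right); filled points have an adjusted p of at most 0.05 in edgeR, yellow points only with the experiment as a block, and open points in neither fit. The IL-4 changes of FCGR2A (1.89 to 2.45) and FCGR2B (2.11 to 2.29) lie far from 0 in all 3 constructs, and FCER1G differs between NIC1 and DNMAML by 0.88 without IL-4.

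The FCGR2 genes are the product of duplications and their coding sequences are nearly the same in long stretches, which decides which reads a counter can assign. FCGR2A (ENSG00000143226; chr1:161505430-161524013), FCGR2C (ENSG00000244682; chr1:161581339-161605662) and FCGR2B (ENSG00000072694; chr1:161663147-161678654) lie on the plus strand of GRCh38. FCGR2C is annotated in GENCODE 29 as a polymorphic pseudogene, and its reference reading frame holds a stop at codon 57. Its coding exons 1, 2, 4 and 5 are 100% identical to those of FCGR2B and its exon 6 is 100% identical to that of FCGR2A. A stretch of 60 coding bases of the extracellular part shows the first likeness, with capitals for the 5 bases in which FCGR2A differs from the other two, at chr1:161509909-161509968 for FCGR2A, chr1:161673064-161673123 for FCGR2B and chr1:161591233-161591292 for FCGR2C:
FCGR2A: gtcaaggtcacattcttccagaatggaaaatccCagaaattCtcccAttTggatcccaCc
FCGR2B: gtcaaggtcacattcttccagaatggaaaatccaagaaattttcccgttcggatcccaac
FCGR2C: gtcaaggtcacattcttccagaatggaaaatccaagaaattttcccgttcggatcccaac

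The cytoplasmic tails show the second likeness and the difference in signalling. Capitals mark the codons of the activating motif's tyrosine cores in FCGR2A (chr1:161518056-161518115) and FCGR2C (chr1:161599711-161599770), and the codons of the inhibitory motif in FCGR2B (chr1:161677357-161677526, across an exon junction):
FCGR2A: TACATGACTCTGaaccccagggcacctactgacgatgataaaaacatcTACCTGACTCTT
FCGR2C: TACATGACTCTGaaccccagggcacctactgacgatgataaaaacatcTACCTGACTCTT
FCGR2B: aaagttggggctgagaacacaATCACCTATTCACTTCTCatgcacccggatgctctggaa
Of all 75-base windows of the annotated transcripts, 56.3% in FCGR2C were shared exactly with a relative, 29.9% in FCGR2B, 14% in FCGR2A, 37.2% in FCGR1A and 19.2% in FCGR3A. FCER1G, FCER2 and FCGRT shared 0%. The read length is not given; with windows of 50 or 100 bases the share in FCGR2C was 69.9% or 45.7%. Values of FCGR2C are therefore uncertain, and those of FCGR2B less so.

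**Figure D3:**
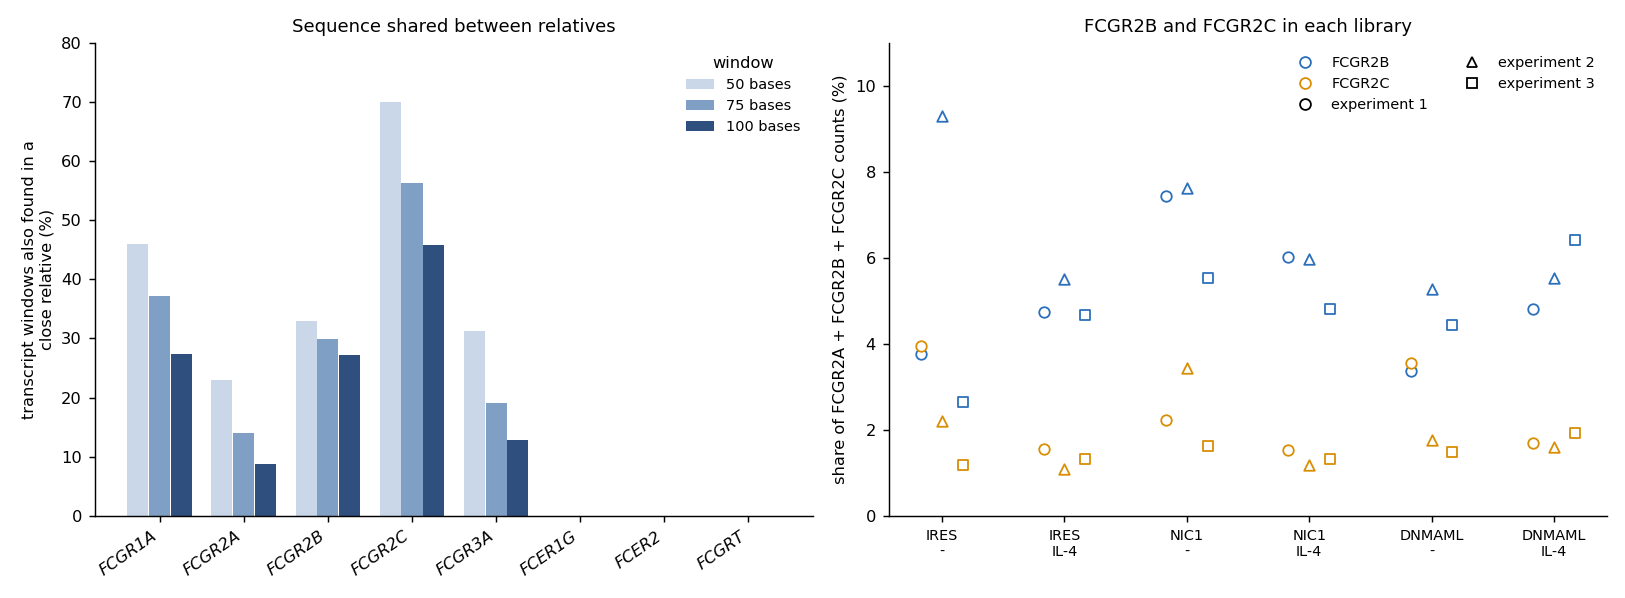
Left, percent of transcript windows of 50, 75 and 100 bases that occur exactly in a close relative, by gene; right, FCGR2B and FCGR2C as a percent of all FCGR2 counts in each library. FCGR2C shares 56.3% of its 75-base windows and FCER1G, FCER2 and FCGRT 0%, and FCGR2B made up 2.65 to 9.29% of FCGR2 counts.

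FCGR2A encodes CD32A, the low-affinity activating receptor with an ITAM-like motif in its own tail. It went from 33.9, 14.4 and 25.4 CPM to 145, 82.8 and 109 with IL-4 in IRES (experiments 1, 2 and 3). In NIC1 it went from 27.8, 18.6 and 22.9 to 138, 104 and 138, and in DNMAML from 35, 19.3 and 28.7 to 139, 71.5 and 97.3. Each of the 9 libraries with IL-4 lay above each of the 9 without it, and experiment 2 was the lowest in 6 of 6 groups. The change was 2.19 ± 0.33 in IRES, 4.57-fold (adjusted p = 0.00109 by edgeR), 2.45 ± 0.33 in NIC1, 5.48-fold (0.000424), and 1.89 ± 0.33 in DNMAML, 3.70-fold (0.00335). Within an experiment it ranged from 3.39 to 6.02-fold over 9 of 9 pairs, and each of the 3 calls held in 18 of 18 fits that left out 1 library, with an adjusted p of up to 0.0241.

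Between constructs FCGR2A did not differ in the first fit. With IL-4, the blocked fit called it higher in NIC1 than in DNMAML (0.34, adjusted p = 0.0232), where the first fit gave 0.30 ± 0.31 (adjusted p = 0.806). Experiment by experiment, the ratio of NIC1 to DNMAML was 0.994, 1.45 and 1.42. The blocked call held in 14 of 18 fits that left out 1 library and was lost, with an adjusted p of up to 0.144, without experiments 2 or 3 of NIC1 or DNMAML with IL-4. Without both libraries in which the most genes were detected, the blocked adjusted p was 0.154.

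FCGR2C, which in people with an open reading frame encodes an activating receptor, had 4 to 20 reads in each library without IL-4 and 13 to 37 in each with it. Its levels were 1.45, 0.361 and 0.312 CPM in IRES, 0.685, 0.717 and 0.400 in NIC1 and 1.33, 0.366 and 0.451 in DNMAML without IL-4. They were 2.43, 0.977 and 1.53, 2.27, 1.32 and 1.93, and 2.52, 1.24 and 2.05 with IL-4, in the same order. The 3 libraries with and without IL-4 did not overlap in NIC1, and overlapped in IRES and DNMAML because of experiment 1. The change was 1.21 ± 0.55 in IRES, 1.61 ± 0.57 in NIC1 and 1.41 ± 0.54 in DNMAML, called in the blocked fit only (adjusted p = 0.0323, 0.00535 and 0.00623, against 0.469, 0.222 and 0.27). The blocked call in IRES held in 13 of 18 fits that left out 1 library (adjusted p of up to 0.192) and was lost without experiments 2 or 3 of the unstimulated or any of the IL-4 libraries of IRES. The blocked call in NIC1 was lost without NIC1 experiment 1 without IL-4 (0.0782). FCGR2C passed the filter on low counts only through the groups with IL-4, so the groups in which it was high decided that it was tested.

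FCGR2B encodes CD32B, the inhibitory receptor. It went from 1.38, 1.51 and 0.702 CPM to 7.36, 4.88 and 5.40 with IL-4 in IRES. In NIC1 it went from 2.28, 1.59 and 1.36 to 8.96, 6.68 and 7.07, and in DNMAML from 1.27, 1.10 and 1.35 to 7.15, 4.27 and 6.8. Each library with IL-4 lay above each without it. The change was 2.28 ± 0.29 in IRES, 4.86-fold (adjusted p = 0.000134 by edgeR), 2.11 ± 0.28 in NIC1 (0.000184) and 2.29 ± 0.29 in DNMAML (0.000114), and the 3 calls held in 18 of 18 fits that left out 1 library, with an adjusted p of up to 0.00265. NIC1 was above IRES in 6 of 6 pairs, by 1.05 to 1.94-fold, but the differences were called in neither fit (0.53 ± 0.32 without and 0.36 ± 0.25 with IL-4, blocked adjusted p = 0.339 and 0.261).

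The activating FCGR2A and the inhibitory FCGR2B both rose in every construct, and a difference in fold between the 2 genes was not tested. FCGR2B made up 2.65 to 9.29% of the reads assigned to the 3 FCGR2 genes, FCGR2C 1.10 to 3.95% and FCGR2A 88.5 to 96.2%. With IL-4 the FCGR2B share was 4.68 to 5.51% in IRES, 4.82 to 6.01% in NIC1 and 4.82 to 6.41% in DNMAML. With the counts of the 3 genes summed, which removes any wrong assignment among them, the IL-4 change was 2.18 in IRES, 2.42 in NIC1 and 1.90 in DNMAML (adjusted p = 0.000939, 0.000397 and 0.00269 by edgeR). The sum does not recover reads left out because they aligned to several places.

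FCGR3A (ENSG00000203747; chr1:161541759-161550737, minus strand) encodes CD16a, the activating receptor that natural killer cells and some monocytes carry. It had 5, 4 and 8 reads in IRES without IL-4 and 3, 0 and 2 with it. It had 5, 2 and 1 and then 4, 1 and 1 reads in NIC1, and 7, 1 and 6 and then 10, 2 and 14 in DNMAML. Over the 3 libraries of a group the ratio of the level with IL-4 to that without was 0.282 in IRES (17 and 5 reads, 95% exact interval for counting error 0.0813 to 0.796), 0.682 in NIC1 (8 and 6 reads, 0.195 to 2.24) and 1.81 in DNMAML (14 and 26 reads, 0.909 to 3.74). With IL-4, DNMAML had 5.09 times the IRES level (1.92 to 17.0, counting error only). The filter on low counts left the gene out, and with no filter the adjusted p of that difference was 1 by edgeR. FCGR3A was at the edge of detection in these libraries, and 19.2% of its windows occur in FCGR3B, which had 11 reads over all libraries.

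FCER2 (ENSG00000104921; chr19:7688758-7702146, minus strand) encodes CD23. Without IL-4 it had 1, 0 and 1 reads in IRES, 4, 3 and 1 in NIC1 and 2, 0 and 0 in DNMAML; with IL-4 it had 10, 6 and 5, 35, 31 and 21, and 4, 14 and 9. In CPM the libraries with IL-4 stood at 0.657, 0.451 and 0.365 in IRES, 2.34, 2.28 and 1.56 in NIC1 and 0.272, 1.09 and 0.578 in DNMAML. The NIC1 libraries with IL-4 lay above all others without overlap, and every construct's libraries with IL-4 lay above its own without. Summed over 3 libraries, the ratio with IL-4 to without was 10.1 in IRES (2 and 21 reads, 95% exact interval 2.46 to 88.5), 9.89 in NIC1 (8 and 87 reads, 4.80 to 23.6) and 13.1 in DNMAML (2 and 27 reads, 3.30 to 114), for counting error only. These ratios rest on few reads, and fitted log2 values at such counts depend on the prior count of the model.

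The filter asked for 0.732 CPM in at least 3 libraries, and FCER2 reached that in 4, all 3 of NIC1 and 1 of DNMAML with IL-4, so the group in which it was high decided that it was tested. By edgeR the IL-4 response of FCER2 was 3.25 ± 0.55 in NIC1 (adjusted p = 0.00208), 3.50 ± 0.81 in DNMAML (0.0235) and 3.11 ± 0.85 in IRES (0.0679, blocked 0.0185). With no filter the adjusted p was 1.49e-06 in NIC1, 0.00175 in DNMAML and 0.0188 in IRES. The call in NIC1 held in 18 of 18 fits that left out 1 library. The call in DNMAML held in 14 and was lost without experiments 2 or 3 of DNMAML in either condition, with an adjusted p of up to 0.113, and it was 0.0771 without both libraries in which the most genes were detected. The IRES response was called, with an adjusted p of 0.0456 at the lowest, in the fits without DNMAML with IL-4 of experiment 1 or 2. Its blocked call held in 15 of 18 and was lost without IRES experiments 1 or 2 unstimulated or experiment 1 with IL-4 (up to 0.119).

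With IL-4, FCER2 in NIC1 was above IRES by 3.56, 5.05 and 4.29-fold in experiments 1, 2 and 3, and above DNMAML by 8.59, 2.10 and 2.71-fold. The differences were 2.04 ± 0.46 (adjusted p = 0.108, blocked 0.00232) and 1.69 ± 0.45 (0.0785, blocked 0.00314), and with no filter the adjusted p was 0.00855 and 0.024. The second was called in the first fit only without DNMAML experiment 2 with IL-4 (0.0387), and lost in the blocked fit without DNMAML experiment 1 with IL-4 (0.0631). Summed over libraries the NIC1 level was 4.17 times that of IRES (2.56 to 7.07) and 3.31 times that of DNMAML (2.13 to 5.30), with 95% intervals for counting error only. FCER2 is a B cell gene too, and the summed level of 8 B cell markers was 13.5 to 18 CPM in NIC1, 9.46 to 14.4 in IRES and 9.26 to 13.3 in DNMAML with IL-4. Of these 8 markers 3 averaged at least 1 CPM, CD79A (6.69), PAX5 (3.68) and CD22 (2.60), whereas MS4A1 had 2 reads and BLK 1 read over all libraries. The part of these markers in the result was not tested.

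FCGRT (ENSG00000104870; chr19:49506816-49526333, plus strand) differed least between libraries. It stood at 437, 394 and 389.8 CPM in IRES, 391, 366 and 415 in NIC1 and 441, 378 and 387 in DNMAML without IL-4, and at 417, 353 and 402, 379, 344 and 374, and 415, 351 and 425 with it. Groups next to each other in mean level overlapped. NIC1 with IL-4 (344 to 379 CPM) lay below IRES without IL-4 (389.8 to 437 CPM) without overlap. These are the lowest and the highest group in mean level, they differ in both construct and IL-4, and their difference was not tested. The 95% interval of the log2 change with IL-4 was -0.26 to 0.14 in IRES, -0.29 to 0.10 in NIC1 and -0.22 to 0.18 in DNMAML by edgeR without the block. Between constructs the largest difference was -0.12 on the log2 scale, for NIC1 against DNMAML with IL-4, and none was called in either fit.

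Across all comparisons of NIC1 with IRES, 0 of 7 members were called without and 0 with IL-4 by edgeR, where 0.233% and 0.2% of all genes were. The smallest unadjusted p were 0.00643 for FCER1G without and 0.000467 for FCER2 with IL-4, and DESeq2 also called 0 in both. In the blocked fit 1 (FCER1G) and 3 (FCER1G and FCER2 higher, FCGR1A lower) were called, against 5.37% and 5.44% of all genes. For NIC1 against DNMAML with IL-4, edgeR called 0 of 7 (1.44% of all genes), DESeq2 called FCER1G (adjusted p = 0.0152), and the blocked fit called 4 (12.6% of all genes), namely FCER1G, FCER2 and FCGR2A higher and FCGR1A lower. Without IL-4 the blocked fit called FCER1G alone (13.8% of all genes). FCER2 came past the filter on low counts only through NIC1 with IL-4, so counts that include it carry no weight as support.

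DNMAML against IRES gave 0 of 7 called without and with IL-4, in edgeR (0% of all genes), in the blocked fit (0.146% and 0.0931%) and in DESeq2. Among the 7 the smallest unadjusted p in edgeR was 0.307 without and 0.335 with IL-4, both for FCER1G, which had 0.0298 and 0.0370 in the blocked fit. FCGR3A, outside the 7, had an unadjusted p of 0.0207 in DESeq2 and of 0.0025 in edgeR with no filter for DNMAML against IRES with IL-4, both with an adjusted p of 1. Over all 15037 genes, 371 and 357 had an unadjusted p under 0.05, and DESeq2 called 2 and 1 gene.

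The size of the IL-4 response was then compared between constructs. No member's response was called different (0 of 7 and 0% of all genes for each of the 3 differences in edgeR, in the blocked fit and in DESeq2). Among the 7 the smallest unadjusted p in edgeR was 0.230, for FCGR2A in NIC1 minus DNMAML, with a difference of 0.57 ± 0.45. The blocked fit gave that difference as 0.59 ± 0.15 with an unadjusted p of 0.00118 and an adjusted p of 0.934. FCGR3A had an unadjusted p of 0.0449 in DESeq2 for DNMAML minus IRES, with an adjusted p of 1. For FCGR2B the difference was -0.17 ± 0.40 for NIC1 minus IRES and 0.01 ± 0.42 for DNMAML minus IRES. FCER2 gave unadjusted p of 0.988, 0.803 and 0.741. For FCER2 the unstimulated groups held 2 to 8 reads each, which limits what a test of the difference in fold can show. Over all genes 121, 98 and 214 had an unadjusted p under 0.05 for the 3 differences.

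IL-4 acts through STAT6, and sites of STAT factors have the core TTCNNNNGAA or TTCNNNGAA, so neither spacing is assigned to a single factor here. RBPJ, the DNA-binding partner of active Notch, favours TGGGAA, and PU.1 of myeloid cells GAGGAA. These letters were searched on both strands in the 250 bases before each start site in RefSeq (GRCh38.p14), where 13 windows of 7 members matched by symbol and FCGR2C had none. Of 35116 such windows, 6.57% held TTCNNNGAA, 5.38% TTCNNNNGAA, 20.8% TGGGAA or its reverse TTCCCA, and 23.6% GAGGAA or its reverse TTCCTC. TTCNNNNGAA was in none of the 13 windows. A window each of FCGR2B and FCER2, the inhibitory IgG receptor and the IgE receptor that rose with IL-4, is shown, chosen for its matches, which are in capitals. The FCGR2B window (chr1:161662893-161663142, plus strand) held TTCNNNGAA at bases -141 and -106 from the start, the second overlapping TGGGAA at -103, and GAGGAA at -180 and -67. The FCER2 window (chr19:7699442-7699691, minus strand) held TGGGAA at -202 and TTCNNNGAA at -185:
FCGR2B: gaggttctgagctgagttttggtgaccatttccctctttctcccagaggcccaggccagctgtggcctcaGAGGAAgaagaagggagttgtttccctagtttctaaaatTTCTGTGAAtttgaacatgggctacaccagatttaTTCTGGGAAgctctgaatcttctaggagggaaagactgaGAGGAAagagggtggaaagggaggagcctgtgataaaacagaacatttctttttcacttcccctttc
FCER2: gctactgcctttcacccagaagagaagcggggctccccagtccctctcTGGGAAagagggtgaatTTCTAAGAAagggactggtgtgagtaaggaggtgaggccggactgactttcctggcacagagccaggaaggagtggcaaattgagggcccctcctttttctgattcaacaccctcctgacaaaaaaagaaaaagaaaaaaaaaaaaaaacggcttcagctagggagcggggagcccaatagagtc
FCGR1A held TTCNNNGAA at -93 as well, overlapping TTCCCA at -93, with TGGGAA at -127 and TTCCTC at -46. FCGR2A, which also rose, held only TTCCTC at -45. FCGRT, called in neither fit, held TTCCCA at -191. FCER1G and the windows of FCGR3A held none of the 4. The other FCGR2B window held none of them, and the other FCER2 window TGGGAA at -186. A match of letters describes the window and is no site by itself.

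Other receptors of the family were listed for comparison: of 19 genes, 9 were tested, and with IL-4 1 fell and 0 rose in each construct by edgeR, where 2.93%, 3.05% and 3.28% of all genes were called in IRES, NIC1 and DNMAML. With the block 2 rose in each and 1, 2 and 1 fell, where 9.04%, 8.8% and 9.95% of all genes were called. The one that fell was FCAR, the receptor for IgA, which signals through the same FCER1G chain. It went from 26.3, 24.4 and 22.1 CPM to 7.95, 10.4 and 9.12 with IL-4 in IRES, from 21, 20.7 and 18.4 to 8.76, 11.5 and 7.0 in NIC1, and from 26.9, 29.4 and 27.5 to 10.2, 15.1 and 8.79 in DNMAML. The groups did not overlap, and it fell by 1.41 ± 0.19, 1.14 ± 0.19 and 1.30 ± 0.18 on the log2 scale (adjusted p = 0.000195, 0.00155 and 0.000354 by edgeR). FCAR fell and FCGR2A rose in the same libraries, and each of the 3 FCAR calls held in 18 of 18 fits that left out 1 library. FCGR1BP, a relative of FCGR1A that shares reads with it, rose in the blocked fit only, as did FCRLB (blocked adjusted p = 0.0142, 0.00234 and 0.00765). FCGR1BP rose by 0.83 in IRES, 0.99 in NIC1 and 1.13 in DNMAML (blocked adjusted p = 0.0173, 0.00561 and 0.00086).

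FCMR, the receptor for IgM, and PIGR, the transporter of polymeric IgA and IgM, are neighbours on chromosome 1 (chr1:206904386-206923247 and chr1:206928518-206946466, minus strand) and both were higher in NIC1. Without IL-4 PIGR stood at 9.28, 5.81 and 7.52 CPM in NIC1 against 2.03, 1.15 and 1.71 in IRES and 2.07, 1.54 and 2.41 in DNMAML. The libraries did not overlap, and the difference from IRES was 2.20 ± 0.34 without (adjusted p = 0.0225) and 2.02 ± 0.36 with IL-4 (0.0322) by edgeR. These calls held in 13 and 11 of 18 fits that left out 1 library (adjusted p of up to 0.101 and 0.226). The first was lost without any IRES library or NIC1 experiments 1 or 3, all unstimulated, the second without any IRES library or NIC1 experiments 1 or 3 with IL-4, or experiment 3 of unstimulated IRES or NIC1. In the blocked fit both held in 18 of 18. Without IL-4 FCMR, next to it, stood at 34.8, 21.1 and 24.6 CPM in NIC1, 12, 10.5 and 12.7 in IRES and 7.53, 5.93 and 12.9 in DNMAML. FCMR in NIC1 exceeded that in DNMAML by 1.61 ± 0.28 without (adjusted p = 0.00964, lost at up to 0.0692 without experiment 1 of unstimulated NIC1 or DNMAML) and by 1.75 ± 0.29 with IL-4 (0.00662). It exceeded that in IRES in the blocked fit only (1.19 and 1.25, blocked adjusted p = 0.000745 and 0.000864). The chains of the high-affinity IgE receptor were nearly absent, with 6 reads of FCER1A and 1 of MS4A2 over all libraries.

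**Figure D4:**
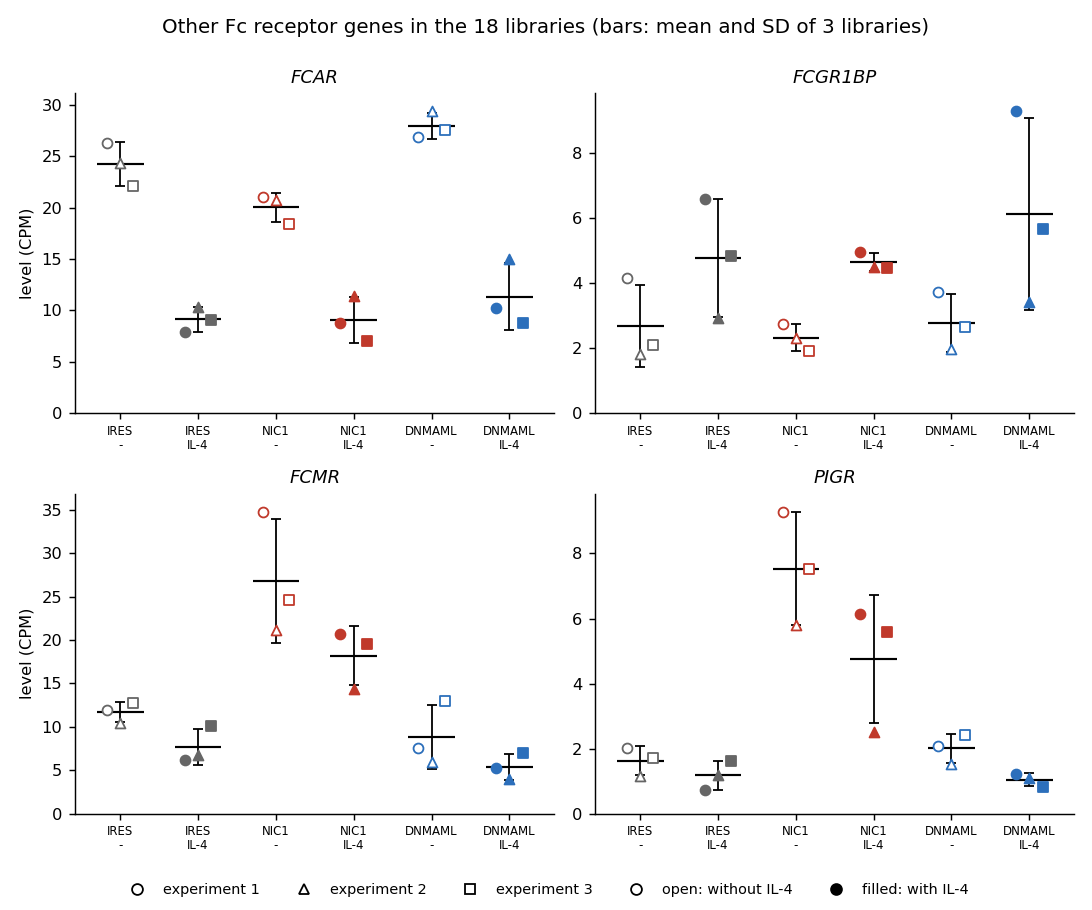
FCAR, FCGR1BP, FCMR and PIGR in each of the 18 libraries, in CPM on linear axes, with symbols as for the Fc receptor genes: shape for the experiment, open without and filled with IL-4, bars for the mean and SD of 3 libraries. FCAR with IL-4 (7.0 to 15.1 CPM) lies below all libraries without it (18.4 to 29.4 CPM), and FCMR and PIGR lie highest in NIC1.

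Of 35 tested genes for activating signalling below Fc receptors, 3 rose with IL-4 in each construct and 0, 0 and 2 fell in IRES, NIC1 and DNMAML by edgeR, where 2.93%, 3.05% and 3.28% of all genes were called in either direction. With the block 7, 8 and 6 rose and 3, 3 and 4 fell, against 9.04%, 8.8% and 9.95% of all genes. Among those that rose were PIK3R5 and PIK3CD, a regulatory and a catalytic subunit of phosphoinositide 3-kinase. PIK3R5 went from 51.0 ± 7.32 to 130 ± 17.4 CPM in IRES (SD, n = 3), a change of 1.35 ± 0.14 (adjusted p = 9.84e-06 by edgeR). PIK3CD rose by 1.04 ± 0.21 (adjusted p = 0.0102) in IRES. In DNMAML PLD1 fell by 0.39 (0.0283) and PRKCD, named after its value was seen, by 0.28 (0.0185); both calls were lost without experiments 1 or 3 of unstimulated DNMAML and without some of its libraries with IL-4 (up to 0.163 and 0.126). PIK3CD was lost in IRES without experiments 1 or 3 unstimulated (up to 0.0602), whereas PIK3R5 held in 18 of 18 fits in every construct. The median log2 change of the 35 genes was -0.04, 0.02 and -0.01, near that of all genes.

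Of 13 tested inhibitory ITIM receptors, 3 rose in each construct, and 1 fell in DNMAML, SIGLEC9 (fell by 0.54, adjusted p = 0.0284, up to 0.143 with 1 library left out), against the same shares of all genes. With the block 4 rose in each and 1, 1 and 2 fell, where 9.04%, 8.8% and 9.95% of all genes were called. CLEC4A, a C-type lectin with an ITIM, rose from 0.755 ± 0.385 to 24.2 ± 9.04 CPM in IRES (4.97 ± 0.39, adjusted p = 1.08e-06), LILRB3 rose by 1.74 and CD300A by 0.45 (adjusted p = 0.0213, up to 0.0901 without experiments 1 or 3 unstimulated or 2 or 3 with IL-4).

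None of 9 inhibitory phosphatases and adaptors, 24 genes of the phagocytic cup, 10 of the ITAM adaptors and receptors that use them, and 5 for CD23 shedding and binding were called with IL-4 by edgeR in any construct. In the blocked fit at most 1 of each list rose and at most 2 fell, where 9.04%, 8.8% and 9.95% of all genes were called in IRES, NIC1 and DNMAML. Of 9 FcRn partner genes, RAB5A rose in DNMAML (0.27, adjusted p = 0.032, up to 0.160 with 1 library left out), where 3.28% of all genes were called. Of 16 transcription factors 3, 3 and 2 rose in IRES, NIC1 and DNMAML, where 2.93%, 3.05% and 3.28% of all genes were called. In the blocked fit 5, 7 and 5 rose and 1, 0 and 1 fell, against 9.04%, 8.8% and 9.95% of all genes. Those that rose by edgeR were CEBPA (1.07 ± 0.21, adjusted p = 0.00767 in IRES) and STAT5A (0.73) in all 3, and IRF8 in IRES (1.78, 0.0261) and NIC1 (1.66, 0.0375). With 1 library left out, IRF8 held in 14 of 18 fits in IRES and 8 in NIC1, and CEBPA in 18 in IRES and NIC1 and 14 in DNMAML; STAT5A held in 18 in each. In the blocked fit all calls named for these lists held in 18 of 18.

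Between constructs, LILRB1, an ITIM receptor for MHC class I, was the only gene of these signalling lists called in NIC1 against IRES by edgeR, in both conditions (1.07 without and 1.18 with IL-4, adjusted p = 0.0421 and 0.0322). Of all genes tested, 0.233% were called there without and 0.2% with IL-4. It held in 6 and 11 of 18 fits that left out 1 library, among those lost the fits without any NIC1 library with IL-4, and in 18 of 18 blocked fits. In NIC1 against DNMAML, 1.65% of all genes were called without and 1.44% with IL-4 by edgeR. Without IL-4, 1 of 35 activating genes, 2 of 9 inhibitory phosphatases and adaptors and 2 of 13 ITIM receptors were higher. Of 10 ITAM adaptors and receptors 1 was higher, and of 24 phagocytic cup genes 1 was higher and 1 lower. Against DNMAML, NIC1 had more of PTPN6, the phosphatase SHP-1 that ITIMs recruit, without (0.57, adjusted p = 0.0224) and with IL-4 (0.52, 0.0361). It also had more CD300A (0.72 and 0.67), PAK1 (0.56 and 0.46) and LILRA1, a receptor that pairs with FCER1G (1.48 and 1.25). ITGAM, a chain of complement receptor 3 that also binds CD23, was lower in NIC1 than in DNMAML (-0.78 without and -0.57 with IL-4, adjusted p = 0.00309 and 0.0244). With 1 library left out, CD300A held in 18 of 18 fits in both conditions, PTPN6 in 14 and 13, PAK1 in 16 and 12, LILRA1 in 17 and 14 and ITGAM in 18 and 14, and in the blocked fit all of them held in 18.

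Over the 18 libraries, log2 CPM of FCGR2A and FCGR2B correlated with Pearson's r = 0.933, FCGR2A and FCGR2C with 0.883 and FCER2 and FCGR2B with 0.842; FCER1G and FCGR1A gave -0.671. These libraries share experiments and the IL-4 contrast, and the values are a description. Among 13222 genes the one most like FCGR2A was CEBPA (r = 0.988), followed by SIGLEC10 (0.976), PIK3R5 (0.976), B3GNT5 (0.972) and ST3GAL5 (0.971). Most like FCGR2B were CLEC4A (0.975), LRRFIP1 (0.973), HSPA6 (0.971), REEP5 (0.966) and SNX8 (0.966). FCER1G was most like PTPN6 (0.978), CD9 (0.974), DUSP2, CASS4 (0.961) and MERTK (0.960).

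FCGR1A was most like LYL1 (r = 0.958 over 18 libraries), CAT (0.947), GAS7 (0.947), SLFN11 (0.942) and RNASE6 (0.936). FCGR2C was most like FCGR1BP (0.944), IRF8 (0.922), KIF25-AS1 (0.908), NOD2 (0.903) and MIR503HG. FCGRT, which varied least, was most like FKBP8 (0.928), KRT17P2 (0.889), GRN (0.887), CTSF (0.885) and GUCD1 (0.884).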

How the data were processed

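RNA-seq libraries were made from 1 ug of total RNA with a TruSeq kit, per the labels' protocols. The deposited values are whole-number counts of reads per Ensembl gene for each library, made by the authors with Trimmomatic, HISAT2 and HTSeq on GRCh38.p12, per the submitters' processing notes; no source used here gives their versions, the read length, the strand setting or the annotation release. The last lines of each deposited count file name no gene and hold 23.8 to 30.9% of its total; these were left out. Multiply aligned reads among them were 15.6 to 19.2%. Symbols, exons and transcripts came from GENCODE 29, which held 57447 of the 58051 identifiers.

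Counts were tested with edgeR 4.0.16 (R 4.3.3) by quasi-likelihood with TMM scaling, robust dispersions, filterByExpr by group and 6 group means over all 18 libraries, with 12 contrasts. P-values were adjusted over all 15037 genes tested by the Benjamini-Hochberg method at 0.05. The SE of a log2 change is its absolute value divided by the square root of F, and its 95% limits use this SE. CPM and RPKM use TMM-scaled library sizes, RPKM also the length of all annotated exons of a gene merged. Intervals on summed counts are exact at 95% and cover counting error only.

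The 6 groups share the numbers 1 to 3. Deviations of log2 CPM from the group means (prior count 2) correlated between same-numbered libraries of all 45 pairs (r 0.206 to 0.759), and each of the 18 libraries was closest to its own number, so the numbers pair the samples and the fit with the number as a block is given as an alternative. Both fits treat the libraries of 1 construct and number with and without IL-4 as separate. Nothing in the labels says that libraries came from separate cultures. A p-value therefore reflects only how far these libraries spread, in part perhaps for technical reasons.

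Alternatives were DESeq2 1.42.0, its size factors in edgeR, no filter, each library left out, omission of the 2 libraries that detected the most genes, and the FCGR2 counts summed; combinations of the block with the last 3 were added after seeing the data. The members, gene lists and tests were chosen with earlier results of these data known. All 8 members were described. For each list, at most 4 called genes per comparison were named, those of largest change whose groups do not overlap, with NOTCH1 and MAML1 as a check of the vectors, and for each member averaging at least 1 CPM the 5 genes with the highest Pearson r. Values of some listed genes are not reported here.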

Additional observations from a re-analysis of the deposited data

Results flagged for a closer look

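FCGR3A levels with and without IL-4 differed in opposite directions between constructs. In DNMAML its level with IL-4 was 1.46, 2.12 and 1.99 times that without in experiments 1, 2 and 3, a ratio of the mean CPM of 1.75. In IRES it was 0.543, 0 and 0.234 times that without, and in NIC1 0.704, 0.461 and 0.930 times, so that the level with IL-4 was the higher in every experiment of DNMAML and the lower in every experiment of IRES and NIC1. The counts behind these ratios were 0 to 14 reads per library. The rule that picked this result out involves no test. With no filter on low counts, edgeR gave the difference of the response between DNMAML and IRES as 2.58 on the log2 scale with an unadjusted p of 0.00997 and an adjusted p of 1.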

How the results depend on the processing

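Of the values of single Fc receptor genes under the single alternatives named in the methods, 1802 kept their direction and their side of the threshold, 24 became called and 18 lost a call. Most of these alternatives left out 1 library, often from outside the groups compared, and most values were called in neither fit. The first count therefore says little about how stable the calls are. With the FCGR2 counts summed, each FCGR2 gene was set against the sum. No called value changed sign, and 124 changed sign without being called, 9 of them with the FCGR2 counts summed. The replicate block, by which the experiment number pairs the samples, raised the members called with IL-4 to 5 in IRES and 5 in DNMAML, in NIC1 against IRES to 1 without and 3 with IL-4, and in NIC1 against DNMAML with IL-4 to 4. It gave 4 with IL-4 in NIC1, from 3, and left 1 in NIC1 against DNMAML without IL-4, and 0 in DNMAML against IRES and in the 3 differences of response. Over all genes the block moved the calls with IL-4 from 441 to 1360 in IRES, from 458 to 1323 in NIC1 and from 493 to 1496 in DNMAML. It moved them in NIC1 against IRES from 35 to 808 and 30 to 818, in NIC1 against DNMAML from 248 to 2082 and 216 to 1893, and in DNMAML against IRES from 0 to 22 and 0 to 14. With no filter 1 member was called in NIC1 against IRES with IL-4, and in NIC1 against DNMAML 0 without and 1 with IL-4; DESeq2 called 1 in the last. Without the 2 libraries that detected the most genes, 0 were called in NIC1 against DNMAML without IL-4. The same with the block, added after seeing the data, gave 4 in IRES and 5 in DNMAML with IL-4, 1 and 3 in NIC1 against IRES, and 2 in NIC1 against DNMAML with IL-4. Leaving out 1 library gave 0 to 1 in NIC1 against DNMAML in either condition. For these moves the cause was not tested. With the FCGR2 counts summed and the block, also added later, the difference of NIC1 from DNMAML with IL-4 that stands for FCGR2C became 0.34, where FCGR2C alone gave -0.08; the sum is mostly FCGR2A. Depth limits FCER2 without IL-4, FCGR2C and FCGR3A, where a count of 0 allows up to 3 reads.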
